A study of Mus musculus with 10 samples.

Results

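Fatty acid oxidation and the use of ketone bodies were followed through 35 genes, chosen by name from knowledge of the pathway: 22 of the mitochondrial route, 6 of the peroxisomal route, 2 of ketone body use, and 5 for fatty acid uptake, cytosolic thioester cleavage and regulation. The array's probe annotation named 34 of the 35, each by 1 probe set, out of 19505 genes tested in all. Etfb, which encodes the beta subunit of the electron transfer flavoprotein, was not listed in the annotation and was not analysed here. M-Wnt, a mesenchymal mouse mammary cancer line, was given 1 doxycycline-inducible shRNA against pyruvate carboxylase (PC, gene Pcx) and selected with puromycin, and each tumor was started from 50000 such cells in a mammary fat pad (the 4th) of a C57BL6J mouse. Mice of the shPC group (5 tumors) drank water with 150 µg/ml doxycycline and mice of the Ctrl group (5 tumors) drank standard water, so both groups carried the same construct and the drug and the knockdown cannot be told apart. The methods describe the animals as adult females. RNA of each whole tumor, host cells included, was hybridized to 1 Clariom S mouse array, and values are log2 signals as read here. The question addressed here is whether the message of these genes differed between tumors with and without induction of the shRNA.

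Long-chain fatty acids enter mitochondria as carnitine esters, made by a carnitine palmitoyltransferase on the outer membrane, exchanged across the inner membrane and turned back into acyl-CoA inside. Each round of beta-oxidation then runs through dehydrogenation, hydration, a second dehydrogenation and thiolysis, and releases acetyl-CoA, while peroxisomes shorten very long and branched chains with enzymes of their own. Ketone bodies made in the liver are turned back into acetyl-CoA in other tissues. Adipose tissue and muscle, both found in a mammary fat pad or next to it, also hold message of many of these genes. The nuclear receptor PPAR alpha with its coactivator PGC-1 alpha is a known activator of many of the genes.

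No member differed between the groups at an adjusted p under 0.05 (limma, Benjamini-Hochberg over 19505 genes), and neither did any other gene (0%). At an unadjusted p under 0.05, 2740 of all genes (14%) and 2 of the 34 members (5.88%) passed, 1 lower in shPC tumors (Acot2) against 6.25% of all genes, and 1 higher (Cpt1a) against 7.8%. The groups were apart, with no overlap of the 5 and 5 tumors, for 0 members, against 1.79% of all genes lower in shPC tumors and 1.82% higher, together 3.61%. By the exact permutation test of each gene over all splits of the tumors, whose smallest p is 0.00794, 4 members (11.8%) had p under 0.05, namely Acot2, Etfa, Hadhb and Cpt1a, against 13.5% of all genes. Of these, 3 were lower in shPC tumors (8.82% of members, 5.57% of all genes) and 1 was higher (2.94% of members, 7.94% of all genes). The member counts in either direction lay below the background on each of these rules, and the count lower by the exact test lay above it. The median difference, shPC minus Ctrl, was -0.02 on the log2 scale over the 34 members and 0.04 over all genes, and the median size of the difference was 0.147 for members and 0.2 for all genes. For 30 of the 34 members the 95% interval of the difference lay within -1 to 1, a change of less than 2-fold either way, as it did for 80.9% of all genes. The exceptions were Acot2, Abcd2, Acot1 and Ppargc1a, whose intervals reached beyond a 2-fold decrease.

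**Figure D1:**
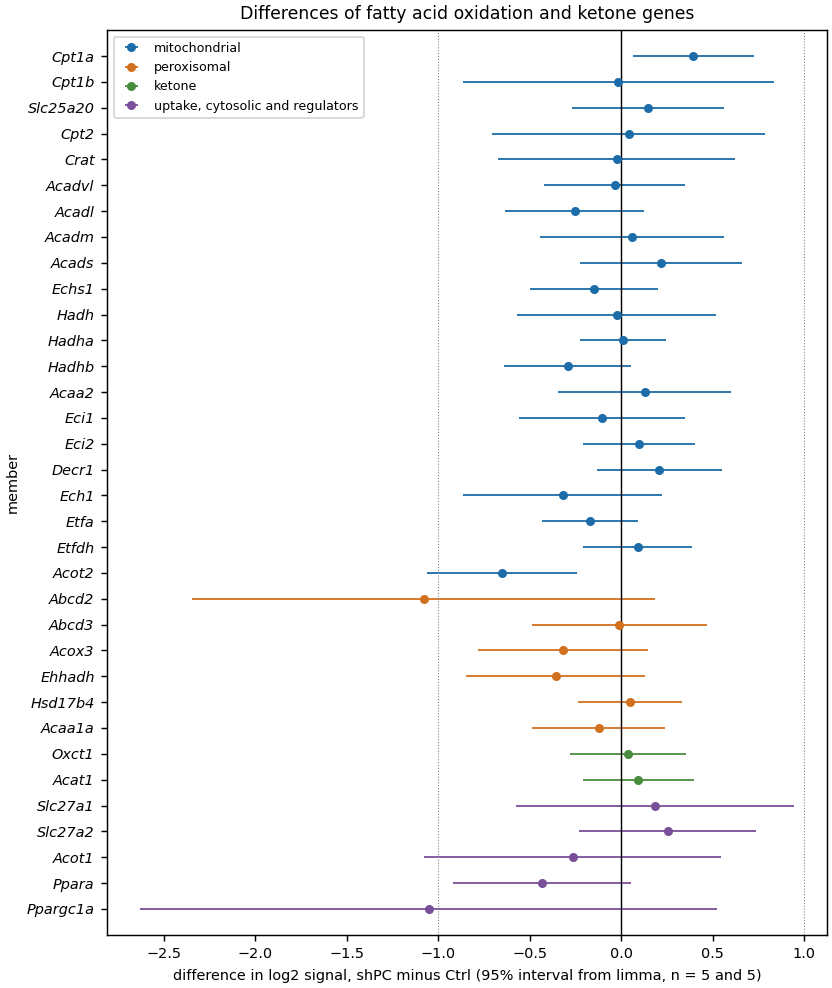
Difference in log2 signal between 5 shPC and 5 Ctrl tumors (x axis, shPC minus Ctrl) for each of 34 members (y axis), coloured by class. Points are differences and bars are 95% intervals from limma, and the dotted lines mark -1 and 1. Only the bars of Cpt1a and Acot2 leave out 0, and Abcd2 and Ppargc1a have the widest bars.

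The targeted gene and the host tissue in the arrays bear on every value below. Pcx had log2 signals of 10.43, 7.24, 11.01, 7.79 and 9.54 in Ctrl 1 to 5 and of 9.91, 4.69, 9.39, 4.49 and 5.15 in shPC 1 to 5, with shPC 1 and shPC 3 as high as Ctrl tumors (difference -2.48, standard error 1.19, limma adjusted p = 0.378, exact permutation p = 0.111). The mean log2 signal of 18 adipocyte markers (of 20 listed, none of them dim in all tumors) was 10.67, 8.44, 11.92, 8.3 and 9.82 in Ctrl 1 to 5 and 10.96, 6.11, 10.11, 5.92 and 6.37 in shPC 1 to 5. All 18 markers had a lower mean in shPC tumors (44.9% of all genes did), 2 of them at an unadjusted p under 0.05 (6.25% of all genes). The tumors with the lowest adipocyte means, shPC 2, shPC 4 and shPC 5, also had the lowest Pcx, and Ctrl 3 was highest in both. That relation was not tested, and knockdown and less host fat cannot be told apart in the Pcx difference. The mean of 15 skeletal muscle markers was 8.29 in Ctrl 1 and 4.1 to 4.63 in the other tumors. The mean of 12 leukocyte markers was 13.07 to 13.56 in Ctrl tumors and 12.29 to 12.94 in shPC tumors, with no overlap. All 12 leukocyte markers had a lower mean in shPC tumors (44.9% of all genes did), 9 of them at an unadjusted p under 0.05 (6.25% of all genes). Means of 11 mesenchymal markers were 13.19 to 13.57 in Ctrl tumors and 13.27 to 13.61 in shPC tumors. Of these 11 markers, 2 were higher in shPC tumors at an unadjusted p under 0.05 (7.8% of all genes) and 0 were lower (6.25%). The mean of 12 epithelial markers was 5.2 to 7.8 in Ctrl tumors and 4 to 6.1 in shPC tumors. Of the 12, 10 had a lower mean in shPC tumors, 3 of them at an unadjusted p under 0.05 (6.25% of all genes). Fewer fat, muscle, immune or epithelial cells and less message per cell cannot be told apart in such RNA. No tumor was left out.

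Cpt1a and Acot2 had the smallest p-values among the members, and Hadhb took part in the pair with the smallest p, so the promoter windows of these 3 genes are shown, each from 250 bases before to 50 bases after the annotated start (RefSeq, build GRCm38.p6, 300 bases, plus strand, 5′ to 3′). The Cpt1a window is chr19:3323051-3323350, and capitals mark TGACCT, which is AGGTCA on the other strand, 94 bases before the start. The Acot2 window is chr12:83987611-83987910 and holds no AGGTCA on either strand. The Hadhb window is chr5:30155003-30155302, and capitals mark the 228 bases it shares with the window of Hadha, which is read from the opposite strand with its start 273 bases away.
Cpt1a: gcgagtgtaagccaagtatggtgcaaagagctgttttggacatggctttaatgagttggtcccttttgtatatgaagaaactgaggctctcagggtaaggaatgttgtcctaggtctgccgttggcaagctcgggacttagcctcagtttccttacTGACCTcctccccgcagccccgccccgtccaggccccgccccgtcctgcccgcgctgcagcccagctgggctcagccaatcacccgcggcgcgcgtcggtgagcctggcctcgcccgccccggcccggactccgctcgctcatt
Acot2: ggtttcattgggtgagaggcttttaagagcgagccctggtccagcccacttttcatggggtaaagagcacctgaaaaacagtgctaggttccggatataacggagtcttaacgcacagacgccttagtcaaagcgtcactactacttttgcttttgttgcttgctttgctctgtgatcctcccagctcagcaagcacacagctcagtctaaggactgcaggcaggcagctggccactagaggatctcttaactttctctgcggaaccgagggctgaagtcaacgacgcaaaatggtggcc
Hadhb: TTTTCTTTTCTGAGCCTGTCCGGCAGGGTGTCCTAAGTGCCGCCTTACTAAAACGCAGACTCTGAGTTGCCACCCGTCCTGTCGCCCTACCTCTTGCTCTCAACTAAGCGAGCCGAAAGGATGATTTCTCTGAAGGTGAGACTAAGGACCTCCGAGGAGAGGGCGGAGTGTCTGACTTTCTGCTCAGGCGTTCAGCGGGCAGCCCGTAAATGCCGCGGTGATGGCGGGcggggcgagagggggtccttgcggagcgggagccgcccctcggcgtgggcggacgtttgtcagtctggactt

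AGGTCA is the core that PPAR and many other nuclear receptors recognize in DNA. Windows were held for 28 of the 35 members. The letters AGGTCA, on either strand, were found for 5 of them, namely Acadm, Acadvl, Cpt1a, Echs1 and Slc27a2. That is 5 of the 31 member windows (16.1%), against 16.3% of the 32851 windows of all genes. TCAAGGTCA, the longer element of the ERR receptors, which contains AGGTCA, was in 0 member windows and in 0.423% of all windows. The direct repeat of AGGTCA with 1 base between, the element of PPAR with RXR, was in 0 member windows and in 0.0396% of all. These are letter matches in 300 bases and no more.

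The carnitine shuttle held the 1 member with a higher signal at an unadjusted p under 0.05. Cpt1a (Entrez Gene 12894), the outer-membrane palmitoyltransferase of liver and most other tissues and the step at which malonyl-CoA holds back the pathway, had 10.38, 10.41, 10.65, 10.37 and 10.9 in Ctrl 1 to 5 and 11.24, 10.81, 10.99, 10.8 and 10.84 in shPC 1 to 5. All shPC tumors lay above 4 of the 5 Ctrl tumors, and Ctrl 5 lay within the shPC range. The difference was 0.39 (standard error 0.15, 95% interval 0.06 to 0.73, 1.31-fold), with an adjusted p of 0.284 from limma, an unadjusted p of 0.0239 and an exact permutation p of 0.0317. The unadjusted p was 0.0559 without Ctrl 1, 0.0526 without Ctrl 2, 0.0569 without Ctrl 4, 0.0582 without shPC 1, 0.0604 without both Ctrl 1 and shPC 5, and 0.0562 with the muscle marker mean as a covariate. Cpt1b, the form of muscle and brown fat, was at 6.56 to 7.58 in Ctrl tumors and from 5.61 in shPC 1 to 7.94 in shPC 2, so its 2 extreme values were both in shPC tumors (difference -0.02, 95% interval -0.87 to 0.83). The within-tumor ratio of Cpt1b to Cpt1a differed by -0.41 between the groups (95% interval -1.57 to 0.75, exact permutation p = 0.516, adjusted over 5 pairs 0.645). Slc25a20, the carnitine-acylcarnitine exchanger of the inner membrane, Cpt2, which reforms acyl-CoA inside, and Crat, the carnitine acetyltransferase, differed by 0.14, 0.04 and -0.02. Cpt2 was at 8.29 in Ctrl 2 and at 9.28 or more in the other 9 tumors.

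The acyl-CoA dehydrogenases, which take chains of falling length in the order Acadvl, Acadl, Acadm and Acads, differed by -0.04, -0.25, 0.06 and 0.22, with 0 of 4 at an unadjusted p under 0.05. Acadl, long-chain acyl-CoA dehydrogenase, had the smallest p of the 4 and was at 13.11, 12.74, 13.42, 12.99 and 12.76 in Ctrl 1 to 5. Its values in shPC 1 to 5 were 12.79, 12.5, 12.83, 13.1 and 12.53 (standard error 0.17, limma adjusted p = 0.533). The groups overlapped, with Ctrl 3 highest and shPC 2 lowest.

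The 2 subunits of the mitochondrial trifunctional protein stood out in how little one of them varied. Hadha (Entrez Gene 97212), the alpha subunit with hydratase and dehydrogenase activity, had the smallest SD over the 10 tumors of all members (0.065). It was at 13.91, 13.9, 14.01, 13.77 and 13.85 in Ctrl 1 to 5 and at 13.85, 13.87, 13.89, 13.93 and 13.95 in shPC 1 to 5 (difference 0.01, 95% interval -0.23 to 0.25). Hadhb (Entrez Gene 231086), the beta subunit with thiolase activity, was at 12.15, 11.99, 12.54, 11.68 and 11.96 in Ctrl 1 to 5. In shPC 1 to 5 Hadhb was at 11.79, 11.69, 11.84, 11.79 and 11.75. Ctrl 4 lay just below all shPC tumors and the other 4 Ctrl tumors lay above them (difference -0.29, standard error 0.16, 95% interval -0.64 to 0.05, limma adjusted p = 0.432, exact permutation p = 0.0476). The Hadhb difference was -0.17 without Ctrl 3 and -0.17 with the adipocyte marker mean as a covariate. The within-tumor ratio of Hadhb to Hadha differed by -0.3 (standard error 0.11, 95% interval -0.55 to -0.05) with an exact permutation p of 0.0238, which was 0.119 when adjusted over the 5 pairs compared. The starts of these genes are 273 bases apart on opposite strands, and the 228 capital bases printed above lie between the starts, before each of them. The correlation with the adipocyte marker mean over 10 tumors was r = 0.68 for Hadhb and r = 0.1 for Hadha, and neither passed (permutation adjusted p = 0.139 and 0.829).

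The other enzymes of the later steps overlapped between groups as well. Echs1, the short-chain enoyl-CoA hydratase, Hadh, the dehydrogenase of medium and short chains, and Acaa2, the mitochondrial thiolase, differed by -0.15, -0.02 and 0.13. Of the enzymes that shift or reduce double bonds of unsaturated fatty acids, Eci1 and Eci2 (enoyl-CoA isomerases) differed by -0.11 and 0.1. Decr1, the dienoyl-CoA reductase, had the smallest p of this group, with 10.11, 10.2, 10.78, 10.36 and 10.65 in Ctrl 1 to 5. Its values in shPC 1 to 5 were 10.44, 10.74, 10.69, 10.67 and 10.6 (difference 0.21, standard error 0.15, limma adjusted p = 0.567). Ech1, the dienoyl-CoA isomerase of mitochondria and peroxisomes, was at 12.59, 11.93, 12.73, 12.12 and 12.29 in Ctrl 1 to 5 and at 12.68, 11.93, 12.33, 11.7 and 11.42 in shPC 1 to 5. Its difference was -0.32 (standard error 0.25, limma adjusted p = 0.582), and shPC 1 was its second highest tumor and shPC 5 its lowest.

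Electrons of the first dehydrogenation pass to the electron transfer flavoprotein and from there, through Etfdh, to ubiquinone. Etfa, the alpha subunit, was at 12.9, 12.99, 13.08, 13.1 and 13.01 in Ctrl 1 to 5 and at 12.83, 12.92, 12.93, 12.95 and 12.6 in shPC 1 to 5. Ctrl 1 lay within the shPC range and the other Ctrl tumors above it (difference -0.17, standard error 0.12, limma adjusted p = 0.545, exact permutation p = 0.0317). The lowest value, 12.6, was that of shPC 5, whose array had the lowest median over named genes (7.16). With a tumor left out the Etfa difference ranged from -0.199 (without Ctrl 1) to -0.1085 (without shPC 5). The Etfa difference was -0.071 with arrays centred on their median and -0.1992 with quantile normalization. Etfdh differed by 0.09.

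Acot2 had the smallest p of all members. It encodes a thioesterase of the mitochondrial matrix that splits long-chain acyl-CoA into free fatty acid and CoA. Acot2 (Entrez Gene 171210) was at 8.87, 9.05, 9.06, 8.44 and 9.28 in Ctrl 1 to 5 and at 8.22, 8.21, 8.77, 8.09 and 8.15 in shPC 1 to 5. Ctrl 4 lay below shPC 3, and otherwise each Ctrl tumor was above each shPC tumor. The difference was -0.65 (standard error 0.19, 95% interval -1.06 to -0.24, 0.636-fold), with an adjusted p of 0.207 from limma, an unadjusted p of 0.00499 and an exact permutation p of 0.0159. Acot1, the cytosolic thioesterase encoded next to it and close to it in sequence, was at 4.69 to 5.83 in Ctrl tumors and at 3.91 to 5.86 in shPC tumors (difference -0.27, 95% interval -1.08 to 0.55), and it was dim, under the 30th percentile of the array, in 1 tumor. The ratio of Acot2 to Acot1 differed by -0.39 (95% interval -1.48 to 0.7, exact permutation p = 0.397, adjusted over 5 pairs 0.645). Probe sequences were not analysed here, so signal shared between these close relatives was not tested.

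**Figure D2:**
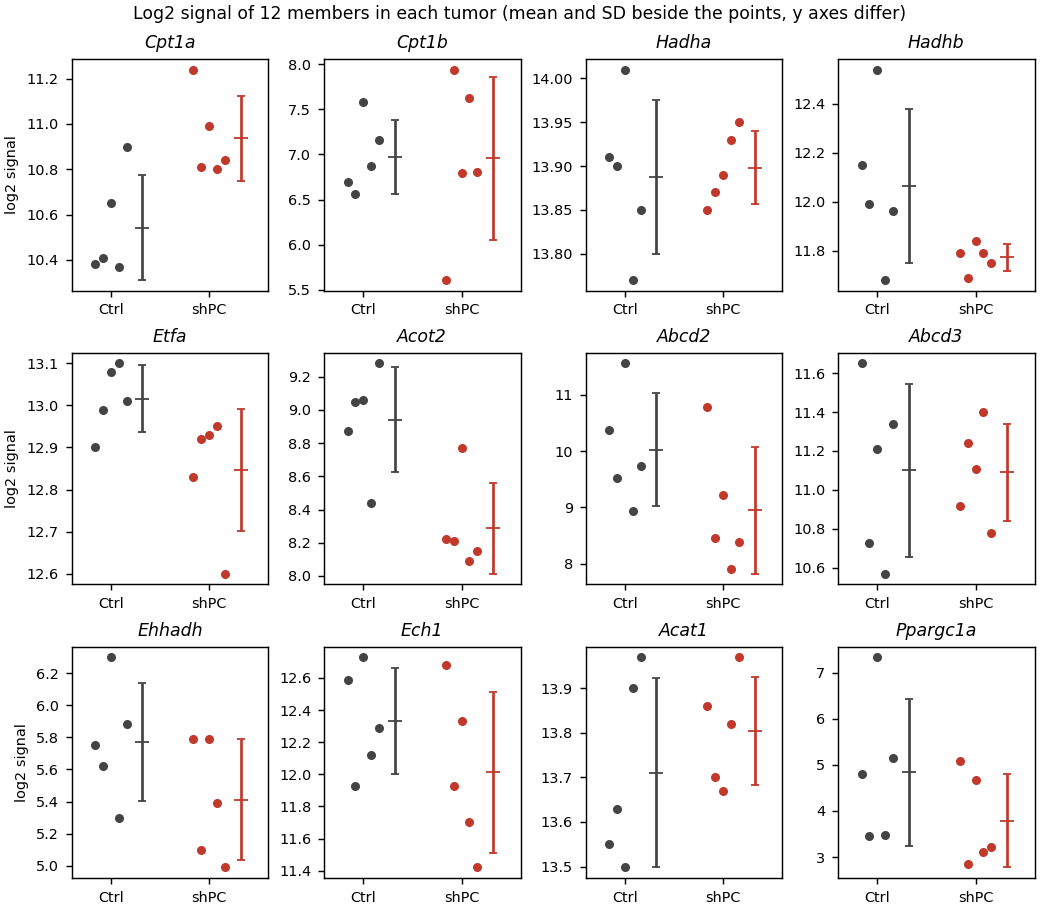
Log2 signal (y axis, a different range in each panel) of 12 members in 5 Ctrl and 5 shPC tumors, 1 point per tumor, with the mean and SD beside the points. Cpt1a and Acot2 overlap between the groups by 1 Ctrl tumor each, Hadhb has a narrow shPC group at 11.69 to 11.84, and Abcd2 and Ppargc1a spread widely in both groups.

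The peroxisomal members had a median difference of -0.22, with 5 of 6 negative (44.9% of all genes were negative) and 0 at an unadjusted p under 0.05. Abcd2, a transporter of very long-chain acyl-CoA into the peroxisome, was at 10.37, 9.52, 11.56, 8.94 and 9.74 in Ctrl 1 to 5 and at 10.78, 8.46, 9.21, 7.9 and 8.38 in shPC 1 to 5. It had the largest mean difference of the members, -1.08 (standard error 0.58, 95% interval -2.35 to 0.19, limma adjusted p = 0.426, exact permutation p = 0.151), but shPC 1 was the second highest tumor and the groups overlapped. Without shPC 1 the difference was -1.54 with an unadjusted p of 0.00918 and an adjusted p of 0.272, and without Ctrl 3 it was -0.7 with an unadjusted limma p of 0.218. Abcd3, its relative in the same membrane, differed by -0.01 (95% interval -0.49 to 0.47), and the ratio of Abcd2 to Abcd3 by -1.07 (95% interval -2.62 to 0.48, exact permutation p = 0.151, adjusted over 5 pairs 0.377). Ehhadh, the peroxisomal bifunctional enzyme, was at 5.75, 5.62, 6.3, 5.3 and 5.88 in Ctrl 1 to 5 and at 5.79, 5.1, 5.79, 5.39 and 4.99 in shPC 1 to 5 (difference -0.36, standard error 0.22, limma adjusted p = 0.494). Acox3, an acyl-CoA oxidase of branched chains, Hsd17b4, the other bifunctional enzyme, and Acaa1a, the peroxisomal thiolase, differed by -0.32, 0.05 and -0.12.

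Ketone body use varied little between tumors. Oxct1, which moves CoA from succinyl-CoA to acetoacetate, was at 13.61 to 14.24 in Ctrl tumors and at 13.82 to 14.13 in shPC tumors, within the Ctrl range (difference 0.04, 95% interval -0.28 to 0.35). Acat1, the mitochondrial acetoacetyl-CoA thiolase, was at 13.55, 13.63, 13.5, 13.9 and 13.97 in Ctrl 1 to 5 and at 13.86, 13.7, 13.67, 13.82 and 13.97 in shPC 1 to 5. Its groups overlapped, and the difference was 0.09 (95% interval -0.21 to 0.4, limma adjusted p = 0.784).

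Of the uptake, cytosolic and regulator members, 4 of 5 were dim in some or all tumors. Slc27a1 (FATP1), the fatty acid transport protein of muscle and fat, was at 11.21 to 12.43 in Ctrl tumors and at 11 to 12.83 in shPC tumors (difference 0.18, 95% interval -0.58 to 0.94). Slc27a2 (FATP2), the acyl-CoA synthetase of liver and kidney, was dim in all 10 tumors, at 2.36, 2.22, 3.06, 2.43 and 1.9 in Ctrl 1 to 5 and 2.26, 2.62, 3.1, 2.61 and 2.65 in shPC 1 to 5 (difference 0.25, limma adjusted p = 0.629). The ratio of Slc27a2 to Slc27a1 differed by 0.07 (exact permutation p = 0.881). Ppara, which encodes PPAR alpha, was also dim in all tumors, at 3.57, 2.85, 3.85, 3.29 and 2.94 in Ctrl 1 to 5 and 2.58, 3.06, 2.88, 3.27 and 2.55 in shPC 1 to 5 (difference -0.43, limma adjusted p = 0.409). Signals as dim as these carry no order. Ppargc1a, which encodes PGC-1 alpha, was dim in 5 tumors, and stood at 4.8, 3.45, 7.34, 3.48 and 5.14 in Ctrl 1 to 5 and 5.09, 2.86, 4.67, 3.12 and 3.21 in shPC 1 to 5. Ctrl 3 lay far above the rest, and the difference of -1.05 (standard error 0.72, 95% interval -2.63 to 0.52) became -0.43 without it.

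Tumors of the same group differed in these genes. Ctrl 3, which had the highest adipocyte marker mean, held the highest value of 15 of the 34 members (44.1%), against 11.3% of all genes. The lowest value lay most often in shPC 4 (8 members, 23.5%, against 8.27% of all genes), Ctrl 2 (7 members, 20.6%, against 11.7%) and shPC 5 (6 members, 17.6%, against 13.8%). Of the 34 members, 29 had a correlation above 0 with the adipocyte marker mean over the 10 tumors (85.3%), against 45.1% of the 19487 genes that are not adipocyte markers. A Pearson r above 0.5 was found for 16 members (47.1%) and for 11.2% of those genes. The median r was 0.54 over mitochondrial members, 0.51 over peroxisomal members and -0.07 over those genes. Oxct1 and Acat1, the ketone members, had r of -0.42 and -0.43. Members are not independent of each other, and these shares are descriptions of the same 10 tumors.

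**Figure D3:**
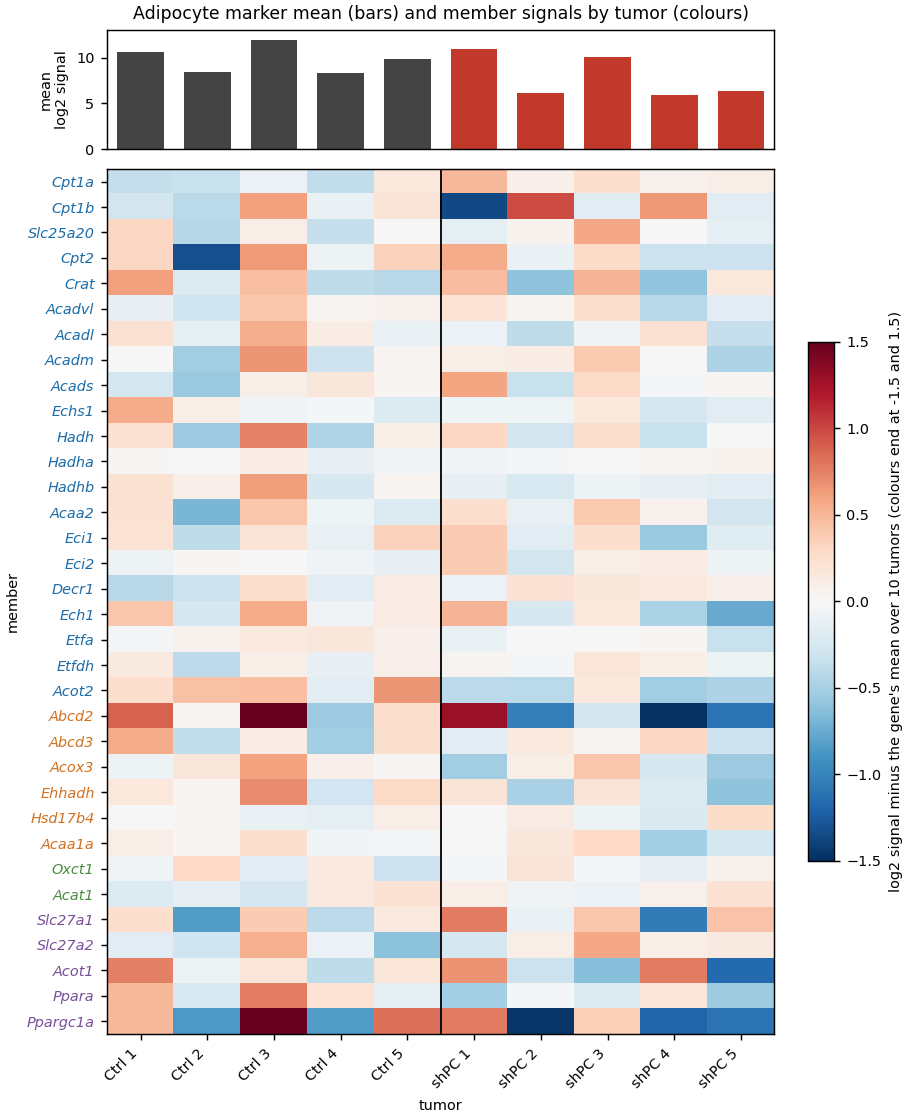
Log2 signal of each of 34 members (rows, names coloured by class as mitochondrial blue, peroxisomal orange, ketone green and others purple) in each tumor (columns), as the difference from that gene's mean over 10 tumors, with the adipocyte marker mean of each tumor as bars on top. Red is above the mean and blue below. Ctrl 3, with the tallest bar at 11.92, is the reddest column, and the 3 shPC tumors with bars of 5.92 to 6.37 are mostly pale or blue.

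Single relations were tested with 100000 permutations and adjusted over 68 (34 members with adipocyte and with muscle markers). The relation with adipocyte markers passed for 4 members. Abcd2 had r = 0.94 and rho = 0.95 (permutation adjusted p = 0.0034 and 0.00714), Ech1 r = 0.93 and rho = 0.94 (0.0034 and 0.00714), and Ppargc1a r = 0.9 and rho = 0.9 (0.0034 and 0.017). Ppargc1a was dim in 5 of the 10 tumors, and signals that dim carry no order, which limits both values. Ehhadh had r = 0.9 with an adjusted permutation p of 0.00714, and rho = 0.82 with an adjusted p of 0.0935. Without shPC 2 and shPC 4, the tumors farthest from the median of the marker mean, r was 0.91 for Abcd2, 0.98 for Ech1, 0.88 for Ppargc1a and 0.93 for Ehhadh. With the group means removed, these 4 again passed, and so did Hadh (r = 0.84) and Cpt2 (r = 0.72). The marker mean had its widest gap, 1.93, between shPC 5 and Ctrl 4, with shPC 2, shPC 4 and shPC 5 below it. Within the 7 tumors above that gap, a split chosen after seeing the data, Hadh (r = 0.98, exact permutation p adjusted over 34 members 0.0236) and Ech1 (r = 0.95, adjusted 0.0236) passed, and Abcd2, Ppargc1a and Ehhadh had r of 0.88, 0.91 and 0.86 with adjusted p of 0.0618, 0.054 and 0.0618. The 3 tumors below the gap are too few for a value of their own. Cpt1a and Acot2 had r of 0.06 and 0.64, and neither passed (adjusted permutation p = 0.894 and 0.237). With the group means removed Cpt1a had r = 0.65 (adjusted permutation p = 0.151). Since Ctrl 1 alone stood apart in muscle markers, no correlation with that mean is given.

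**Figure D4:**
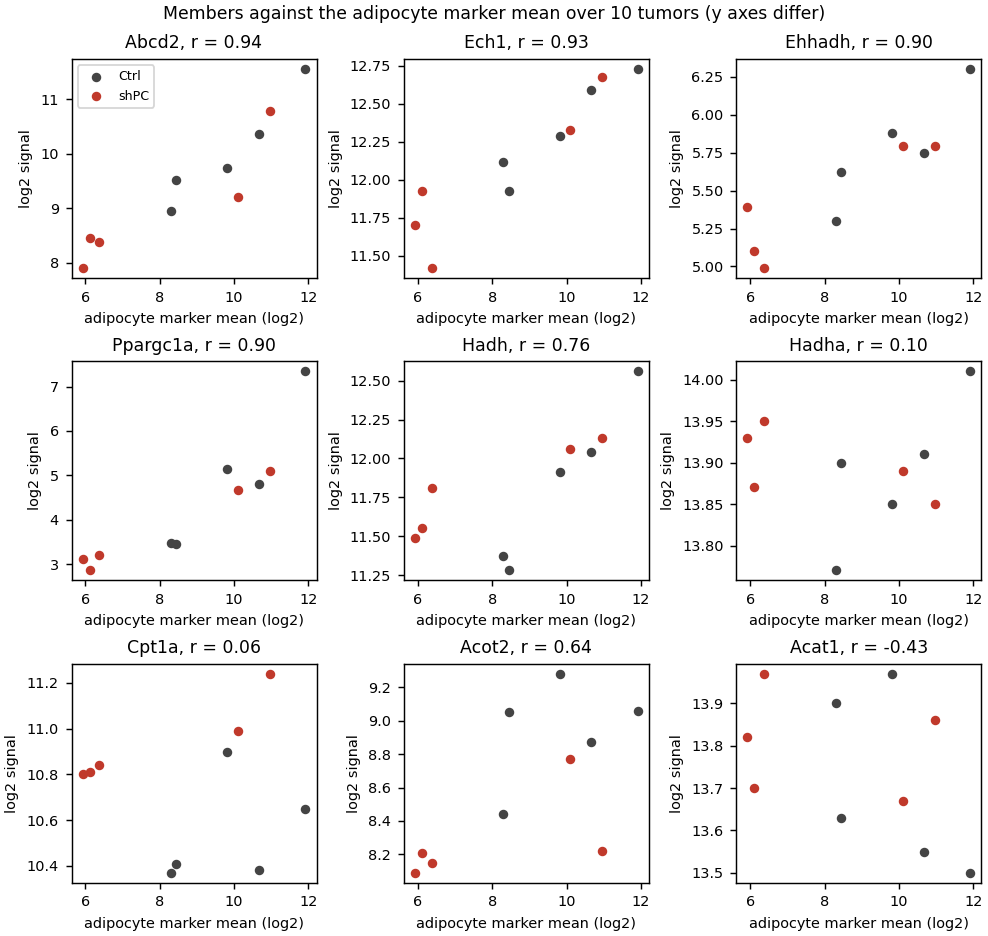
Log2 signal of 9 members (y axis, a different range in each panel) against the mean log2 signal of 18 adipocyte markers (x axis), 1 point per tumor, Ctrl dark and shPC red. Abcd2, Ech1, Ehhadh and Ppargc1a lie along rising lines with r of 0.9 to 0.94, and Hadha, Cpt1a and Acat1 have r of 0.1, 0.06 and -0.43.

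With the adipocyte marker mean as a covariate, 0 genes had an adjusted p under 0.05 (0%). At an unadjusted p under 0.05, 1 member was lower (4.03% of all genes) and 3 were higher (4.91% of all genes). In that limma fit Acot2 stood at -0.51 (adjusted p = 0.502, unadjusted 0.0273). Cpt1a stood at 0.52 (adjusted p = 0.473, unadjusted 0.00615). Slc27a1 moved from 0.18 to 0.63 and Acads from 0.22 to 0.43, both at adjusted p-values over 0.05. The marker mean averaged 9.83 in Ctrl and 7.9 in shPC tumors, so a positive relation with it within groups moves a difference upward by construction. Among the 4 members whose relation passed, Abcd2 moved from -1.08 to -0.15 and Ppargc1a from -1.05 to 0.06. Ech1 moved from -0.32 to 0.05 and Ehhadh from -0.36 to -0.05. These moves follow from how the 4 were picked and are no separate result. The remaining members moved upward too, except 4 that moved downward. Those were Cpt1b from -0.02 to -0.34, Hsd17b4 from 0.05 to 0.02, Oxct1 from 0.04 to -0.04 and Acat1 from 0.09 to 0.04. Medians with the covariate were 0.18 for mitochondrial, -0.02 for peroxisomal and 0 for ketone members, and 0.02 for all genes. The differences of Cpt1a and Acot2 lay on the same side of 0 with and without the covariate. The leukocyte marker mean, which did not overlap between the groups, was not entered as a covariate, and its part in these values was not tested.

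**Figure D5:**
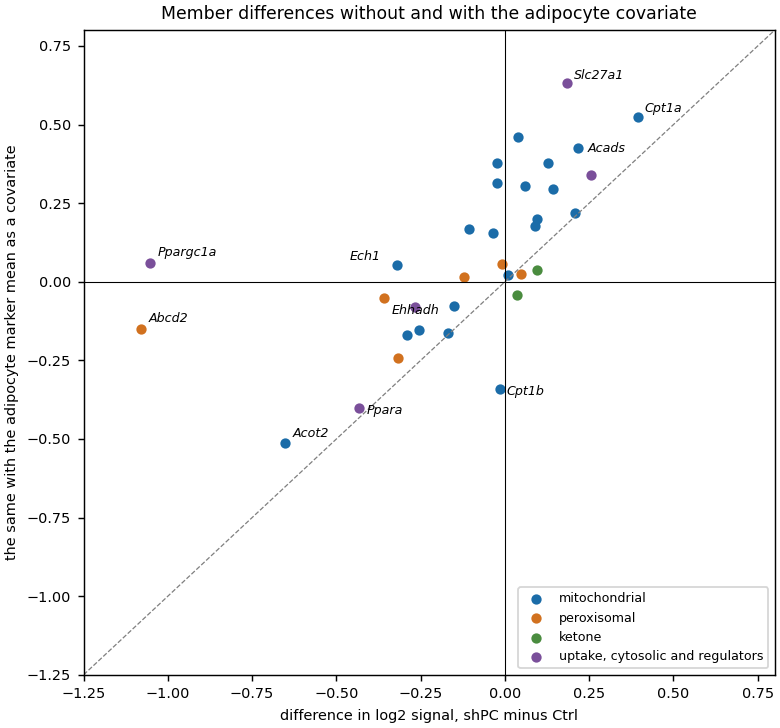
Difference in log2 signal between shPC and Ctrl tumors (x axis) against the same difference with the adipocyte marker mean as a covariate (y axis), 1 point per member and coloured by class, with the line of equal values dashed. Abcd2 and Ppargc1a lie near -1 on the x axis and near 0 on the y axis, while Acot2 and Cpt1a stay near the line.

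Genes around the members were read from lists written from general knowledge. The counts below stand against 6.25% of all genes lower in shPC tumors and 7.8% higher at an unadjusted p under 0.05. Of 21 other genes of mitochondrial oxidation measured, 0 passed in either direction at an unadjusted p under 0.05, and the smallest p-values were those of Ucp3, an uncoupling protein of muscle and brown fat (-0.88, limma adjusted p = 0.438, dim in 5 tumors), and Lactb2, an endoribonuclease (0.21, adjusted p = 0.516). Of 27 other peroxisomal genes 1 was lower and 1 was higher. Phyh, phytanoyl-CoA hydroxylase of the alpha-oxidation of branched chains, was at 9.62, 9.56, 10.4, 9.31 and 10 in Ctrl 1 to 5 and at 9.53, 8.66, 8.97, 8.52 and 8.24 in shPC 1 to 5. Of its shPC values only that of shPC 1 lay within the Ctrl range (difference -0.99, standard error 0.27, limma adjusted p = 0.194, exact permutation p = 0.0159). Slc25a17, a peroxisomal carrier of cofactors, differed by 0.34 (adjusted p = 0.353). Of 9 other ketone genes 0 were lower and 1 was higher, Oxct2a, the testis form of the CoA transferase (0.94, adjusted p = 0.316, dim in 8 tumors), followed by Slc16a7, a monocarboxylate transporter (0.38, adjusted p = 0.44).

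Of 13 PPAR and ERR receptors and partners 1 passed the unadjusted threshold on each side, against the same 6.25% of all genes lower and 7.8% higher. Ppargc1b, a coactivator related to Ppargc1a, was at 7.97 to 8.42 in Ctrl tumors and at 6.68 to 8.06 in shPC tumors (difference -0.74, standard error 0.25, limma adjusted p = 0.243). Nrip1, a corepressor of nuclear receptors that holds back oxidation genes in mouse fat, was at 12.25 to 12.79 in Ctrl tumors and at 12.78 to 13.1 in shPC tumors (difference 0.4, standard error 0.14, adjusted p = 0.254). Both pairs of groups overlapped. Of 17 genes of fatty acid uptake and binding 1 was lower and 1 higher, Slc27a6, a fatty acid transport protein (-0.53, adjusted p = 0.236, dim in 7 tumors), and Got2, a mitochondrial aminotransferase also described as a fatty acid binding protein of the plasma membrane (0.3, adjusted p = 0.338).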

How the data were processed

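Whole tumors of 2 groups, 5 shPC and 5 Ctrl, were measured on Clariom S mouse arrays, prepared with the WT PLUS kit, 1 array per tumor. The values that the authors deposited, for 22206 probe sets, were taken as log2 signals, the usual scale of this array's software. Their log base and how arrays were normalized are not given in the sources used here. Array maxima of 19.04 to 19.19 lie above what a common scanner can give in log2, so the base is uncertain. Medians over named genes were 7.16 in shPC 5 and 7.35 to 7.47 in the other arrays. The array of shPC 5 thus stood apart, and it held the highest value of 19.6% of all genes and the lowest of 13.8%. The probe annotation lists 1 gene for 19572 probe sets and none for 2634. For 55 genes with several probe sets that with the highest mean was used, leaving 19505 genes. A probe set under the 30th percentile of its array was called dim.

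Groups were compared with limma 3.58.1 in R 4.3.3 (shPC minus Ctrl, eBayes, no filter), adjusted by Benjamini-Hochberg over all genes, threshold 0.05. Single values and ratios were tested over all splits of the tumors, two-sided. Correlations used 100000 resamples, or the 14400 orders within groups. The members and lists were chosen with earlier results of these data known. Values in every tumor are given for members with an unadjusted p under 0.05, for the member with the smallest p of each role and for pairs with an exact p under 0.05. Ech1, Ppargc1a and Phyh were added after their values were seen. Of each related list the genes with the 2 smallest p-values are named. Whether a mouse gave more than 1 tumor is not stated, so p-values describe only the spread among these tumors, whose number limits precision. Same-numbered tumors had correlations of 0.04 to 0.28 in their deviations, not all over 0.1, so the numbers were not taken to pair the tumors. The alternatives were quantile normalization, median centring, a filter on dim probe sets, eBayes with trend and robust, the methods' t-test, array weights, averaging a gene's probe sets, the replicate block, marker means as covariates and leaving out tumors. The scripts' steps were tested on simulated data. Promoter windows came from RefSeq.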

Additional observations from a re-analysis of the deposited data

Results flagged for a closer look

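The 34 members and Pcx give 70 groups of 5 tumors, and 2 of them held a tumor far from the other 4 by Dixon's test, which flags about 1 group in 20 by chance. Slc25a20, the carnitine-acylcarnitine exchanger, was at 10.77 in shPC 3 and at 10.06 to 10.24 in the other shPC tumors. Acot2, the mitochondrial thioesterase, was at 8.77 in shPC 3 and at 8.09 to 8.22 in the other shPC tumors. Without shPC 3 the Acot2 difference was -0.77 (limma adjusted p = 0.171).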

How the results depend on the processing

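No member reached an adjusted p under 0.05 in any alternative run, and the smallest was 0.15, for Acot2 with dim probe sets left out (13773 genes, 32 members). Over all genes the count at an adjusted p under 0.05, 0 as reported and with the methods' t-test, was 1 with arrays centred on their median, 10 with trend and robust variances, and 0 to 4 with a tumor left out (4 without shPC 4). Centring also changed the shares of all genes at an unadjusted p under 0.05 to 4.37% lower and 11.2% higher. Acot2 stayed lower at an unadjusted p of 0.0011 to 0.034 in all alternatives. The members lower at an unadjusted p under 0.05 numbered 3 with the replicate block (Acot2, Abcd2 at -1.08 and Ppargc1a at -1.05), against 7.51% of all genes. With a tumor left out they numbered 1 to 3, against 4.9% to 6.86% of all genes. Those higher numbered 3 with the adipocyte covariate (4.91% of all genes), 0 with the muscle covariate (6.1%) and 2 with both (4.37%). They numbered 0 without Ctrl 1 and shPC 5 (4.66% of all genes). With a tumor left out those higher numbered 0 to 2 (5.75% to 8.73% of all genes), and 0 without Ctrl 1, Ctrl 2, Ctrl 4 or shPC 1. The pair Hadhb over Hadha, -0.3, had p = 0.0625 by exact sign flips of same-numbered tumors, the smallest they can give, and its exact permutation p was 0.00794 to 0.0397 with a tumor left out. The pair Abcd2 over Abcd3 was -1.57 without shPC 1 (exact permutation p = 0.00794) and -0.71 without Ctrl 3 (exact permutation p = 0.302). The relations with adipocyte markers that passed numbered 6 with group means removed and 2 above the gap, where 7 tumors remain. Class medians stayed within the spread between tumors, but that of mitochondrial members was 0.0102 to 0.179 in 7 settings that left out no single tumor. With a tumor left out it ranged from -0.116 (without Ctrl 2) to 0.109 (without Ctrl 3). With median centring it was 0.083, against 0.135 for all genes. The median of the ketone members was -0.0025 with the adipocyte covariate and -0.01 with both, and that of the uptake, cytosolic and regulator members was 0.06 and 0.01 in these fits and 0.15 without Ctrl 1 and shPC 5.

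Differences that changed sign, all of members far from the threshold as reported, were as follows, and the cause was not tested. Cpt1b was 0.0744 with quantile normalization, 0.083 with median centring and 0.182 with array weights. Abcd3 was 0.089 with centring, 0.0858 with array weights, 0.0563 with the adipocyte covariate, 0.12 with the muscle covariate, 0.149 with both and 0.205 without Ctrl 1 and shPC 5. Crat was 0.075 with centring, 0.378, 0.144 and 0.467 with the 3 covariate fits in the same order, and 0.0825 without those tumors. With both covariates its unadjusted limma p was 0.0477, so Crat was among the members counted higher in that fit (4.37% of all genes). Hadh was 0.075 with centring, 0.315, 0.0267 and 0.322 with the covariate fits, and 0.0275 without those tumors. Acadvl was 0.063 with centring, 0.155 with the adipocyte covariate and 0.108 with both. With the adipocyte covariate and with both, Eci1 was 0.166 and 0.175, Ech1 0.0517 and 0.0636, Acaa1a 0.0148 and 0.0127, and Oxct1 -0.0416 and -0.0362. Ppargc1a was 0.0603 with the adipocyte covariate. With both covariates Echs1 was 0.0115 and Acot1 0.00879. Without Ctrl 1 and shPC 5 Hsd17b4 was -0.0075 and Acot1 0.147. With a tumor left out, ranges that crossed 0 were -0.142 to 0.128 for Abcd3, -0.0285 to 0.249 for Acaa2, -0.0655 to 0.23 for Acadm, -0.116 to 0.0625 for Acadvl, -0.262 to 0.321 for Cpt1b, -0.284 to 0.205 for Cpt2, -0.153 to 0.127 for Crat, -0.214 to 0.0185 for Eci1, -0.162 to 0.158 for Hadh, -0.0195 to 0.0405 for Hadha, -0.0155 to 0.107 for Hsd17b4, -0.0415 to 0.116 for Oxct1 and -0.0035 to 0.47 for Slc27a1. The pair Cpt1b over Cpt1a ranged over -0.688 to 0.0025 and Slc27a2 over Slc27a1 over -0.206 to 0.339.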
